A study of Homo sapiens with 4 samples.

Results

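Signalling by extracellular ATP and adenosine was described through 4 genes in MiaPaca-2 cells, a long-established line from a human pancreatic carcinoma: SLC17A9, P2RX4, NT5E and ADORA2B. They were taken by gene symbol from the authors' deposited table of 858 genes, each symbol standing once. They were chosen by their fold changes and p-values in that table together with their role, so these values are given as a description and support nothing. RNA sequencing was carried out on 4 samples, 2 with a hairpin that targets PRMT1 (shPRMT1) and 2 with a non-targeting hairpin (shNTC), in cells grown in DMEM with fetal bovine and horse serum. PRMT1 is an arginine methyltransferase that places asymmetric dimethylarginine on histone H4 and on many RNA-binding proteins. The titles give both replicates the same label, shPRMT1, and do not say which hairpin or how many were used. Effects of a hairpin on other transcripts therefore cannot be told apart from those of PRMT1 loss. Whether the replicates were separate cultures is not said either.

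Cells pack ATP into secretory vesicles and lysosomes and also release it through large-pore channels. Outside the cell it acts on P2X channels, which open to cations, and on G-protein-coupled P2Y receptors. Ectonucleotidases then strip its phosphates: CD39-type enzymes make AMP, and CD73 turns AMP into adenosine. Adenosine acts on P1 receptors, of which the A2 subtypes raise cyclic AMP, until nucleoside transporters and deaminases remove it. In pancreatic tumours this route is known chiefly for adenosine made by CD73, which dampens T cells.

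The table gives 1 fold change per gene between both groups, with its p and adjusted p. Single samples' values were not analysed here. No replicate error therefore stands beside a fold change, the sequencing depth is unknown, and a level in shPRMT1 or in shNTC cannot be given. The header does not name the numerator. shPRMT1 was taken as the numerator, since PRMT1 stands at 0.356 in the authors' deposited table (log2 −1.49, p = 0.0156, adjusted p = 0.411). If shNTC were the numerator, all directions below would turn. Whether a constant was added to expression values before the ratio, which would shrink the ratios of weakly expressed genes, is not given in the sources used here. All 4 members stand in the table because their unadjusted p was under 0.05, as it was for 11.2% of the 7640 genes tested, so their presence is no result. Their adjusted p lay between 0.390 and 0.432 in the authors' deposited table, and 0 of the 4 passed 0.05. Of all genes tested, 0.0131% did, which is 1 gene. Higher and lower are used here for the side on which the table lists a gene, not for a difference that passed correction.

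Members stood on both sides, 2 lower in shPRMT1 and 2 higher, where the table holds 6.56% of the genes tested on the lower side and 4.67% on the higher. Each side held a large difference and a smaller one. The vesicular ATP transporter SLC17A9 was listed 3.20-fold higher and the ATP-gated channel P2RX4 4.08-fold lower in the authors' deposited table. The ecto-enzyme NT5E (CD73) was listed 1.53-fold lower and the A2B receptor ADORA2B 1.17-fold higher in the authors' deposited table. On the log2 scale the values span from −2.03 to 1.68, and the size of the largest is 8.86 times that of the smallest. As a whole the table had a median absolute log2 fold change of 0.28. P2RX4 and SLC17A9 are among its 58 genes past 1 on the log2 scale in either direction, NT5E exceeds the median size, and ADORA2B is under it.

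**Figure D1:**
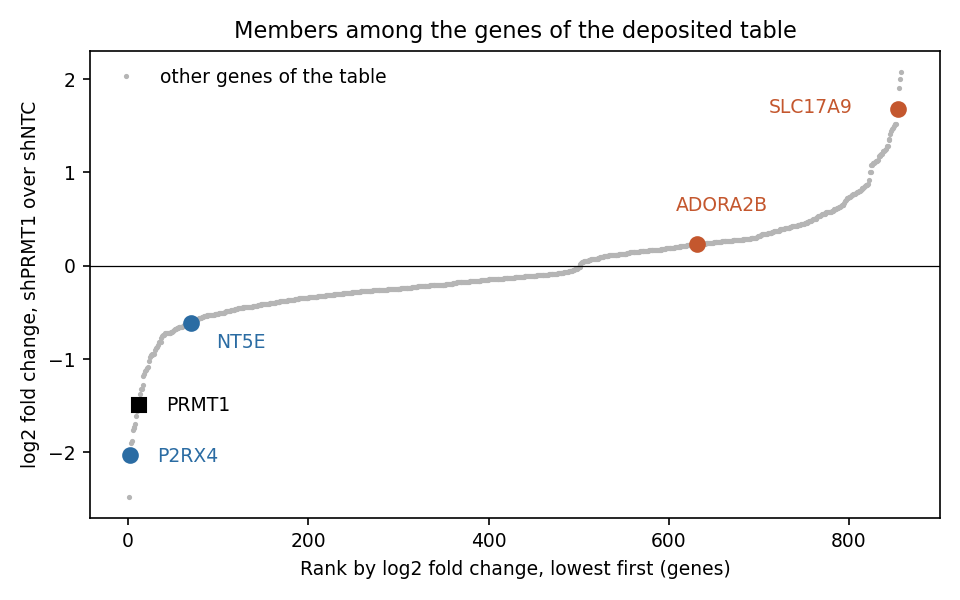
log2 fold change (shPRMT1 over shNTC, vertical axis) of all 858 entries of the authors' deposited table against its rank from the lowest (horizontal axis), with the members as coloured circles and PRMT1 as a black square. P2RX4 at −2.03 and SLC17A9 at 1.68 sit on the steep ends of the curve, while NT5E at −0.61 and ADORA2B at 0.23 sit where it is flatter.

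SLC17A9 (ENSG00000101194.13, chromosome 20) encodes VNUT, which loads ATP into vesicles and lysosomes, driven by their membrane potential, and so sets how much can be released by exocytosis. In the authors' deposited table its log2 fold change was 1.68, with p = 0.0167 and an adjusted p of 0.411. That is the fifth highest of 357 higher genes, and 310th of 858 by p-value. Of the 9 genes of the SLC17 family, which also holds the vesicular glutamate transporters and the lysosomal sialic acid transporter, it is the 1 gene in the authors' deposited table. The genes nearest to it by log2 fold change were the transcription factor ZBTB46 at 1.68 and the sterol transfer protein GRAMD1B at 1.63 in the authors' deposited table. Likeness here is closeness of a single comparison between 2 groups and carries no other information.

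P2RX4 (ENSG00000135124.10, chromosome 12) encodes an ATP-gated cation channel permeable to calcium that resides largely in lysosomes and cycles to the cell surface. The authors' deposited table gave it −2.03 on the log2 scale, with p = 0.0136 and adjusted p = 0.408. Of 501 lower genes only the histamine receptor gene HRH1, at −2.47, was further down in the authors' deposited table. Its value, given without an error, lies beyond that of PRMT1 itself, which the hairpin targets and which stood 12th from the lowest end. By p-value P2RX4 stood 252nd, and 29.3% of that table had a smaller p. Nearest to it were KLHL22, a cullin ligase adaptor, at −1.90 and the transcription factor MEF2A at −1.87 in the authors' deposited table, so no gene lies within 0.1 of it on the log2 scale. The other 6 P2X genes, P2RX7 among them, were not in the table, and neither were any of 8 P2Y genes.

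NT5E (ENSG00000135318.7, chromosome 6) encodes CD73, the surface enzyme that converts AMP to adenosine. Its log2 value in the authors' deposited table was −0.61, with p = 0.0365 and adjusted p = 0.432. This is 70th of 501 lower genes by size, and 72.8% of the table's genes had a smaller p-value. TINF2, a telomere shelterin protein, at −0.61 and BNIP3L, a mitophagy receptor, at −0.62 were nearest in the authors' deposited table. Of 18 ectonucleotidase and related genes, ENTPD4 was the other in the authors' deposited table, at a log2 fold change of −0.04 (p = 0.0283). ENTPD4 works inside the Golgi and lysosomes rather than at the surface. The CD39 gene ENTPD1, which supplies AMP to CD73, was not listed.

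ADORA2B (ENSG00000170425.3, chromosome 17) encodes the A2B receptor, the adenosine receptor of lowest affinity, which couples to Gs and in some cells to Gq. For this receptor the authors' deposited table held a log2 value of 0.23, with p = 0.00865 and adjusted p = 0.390. ADORA2B thus had the smallest fold change and the smallest p-value of the members, the only one of the 4 with p under 0.01. It stood 228th of 357 higher genes by size and 168th of 858 by p-value. Nearest to it by fold change were PDE6D, a carrier of prenylated proteins, and the ubiquitin-binding protein ANKRD13A, both at 0.23 in the authors' deposited table. The other 3 adenosine receptor genes, ADORA1, ADORA2A and ADORA3, were not listed.

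**Figure D2:**
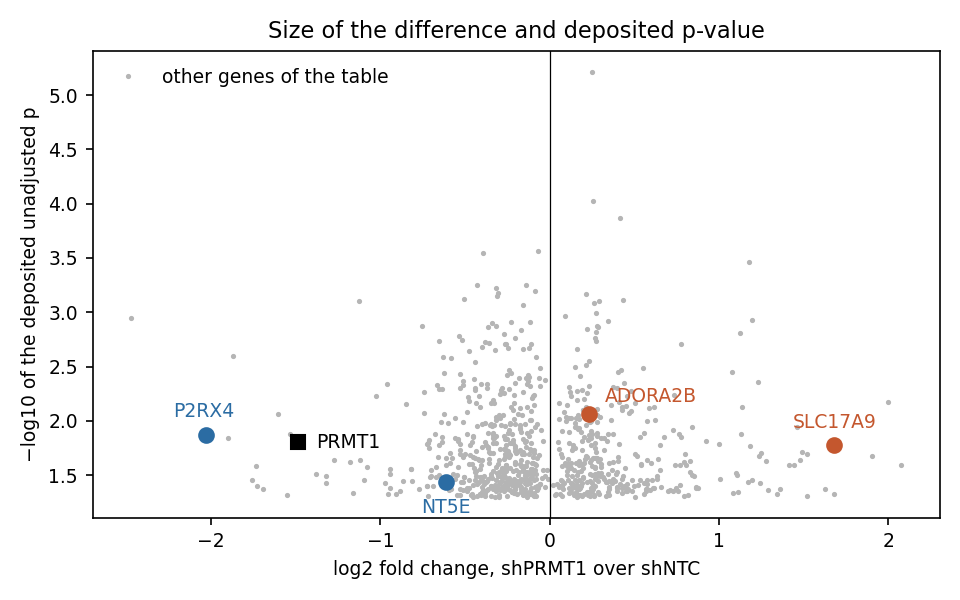
log2 fold change (horizontal axis, shPRMT1 over shNTC) and −log10 of the unadjusted p (vertical axis) of each gene in the authors' deposited table, with the members as coloured circles and PRMT1 as a black square. ADORA2B, with a log2 fold change of 0.23, lies above P2RX4 at −2.03 and SLC17A9 at 1.68 on the p axis, and NT5E at −0.61 lies lowest of the 4.

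Size and p-value thus ranked the members differently. By size the order was P2RX4, SLC17A9, NT5E and ADORA2B, and by p-value it was ADORA2B, P2RX4, SLC17A9 and NT5E. The p-values of P2RX4 and SLC17A9, 0.0136 and 0.0167 in the authors' deposited table, stand beside differences that are more than 7 times as large on the log2 scale as that of ADORA2B. How the single samples spread behind each p-value was not analysed here.

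The rest of the pathway was read from lists of receptors, release routes, enzymes, transporters and downstream effectors, 156 genes in all with the members included. The authors' deposited table held 8 of them, 5 on the lower side and 3 on the higher, with a median log2 value of −0.16. The whole table has 58.4% lower genes and a median of −0.12. Without the 4 members, 4 of 152 pathway genes were listed (2.63%), 3 of them lower and 1 higher. This share is under the 11.2% of tested genes that the table holds, but how many of the 152 were expressed and tested is unknown, so both figures have different denominators. The adjusted p was over 0.05 for each of these 4 in the authors' deposited table.

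Among release routes, LRRC8A was listed beside SLC17A9. It is the obligatory subunit of the volume-regulated anion channel, which also passes ATP, and the authors' deposited table gave it a log2 fold change of 0.11 (p = 0.0412). Pannexins, connexins and CALHM channels were among the 15 of 17 release genes that were not listed. None of the 18 genes of nucleoside transport and turnover was listed, which include the equilibrative transporter SLC29A1, adenosine deaminase ADA and adenosine kinase ADK.

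Downstream of the receptors, 2 of 76 genes were listed and both were lower, in a table that holds 11.2% of the genes tested and in which 58.4% of genes are lower. PRKAR1B, a regulatory subunit of the cyclic AMP-dependent protein kinase, stood at −0.64 on the log2 scale in the authors' deposited table, with p = 0.00511 and adjusted p = 0.364. It was the 1 gene listed of 40 in the cyclic AMP list. The IP3 receptor ITPR2, which releases calcium from the endoplasmic reticulum, stood at −0.28 (p = 0.0417) in the authors' deposited table. It was the 1 gene listed of 28 in the calcium list. The inflammasome list, 8 genes including NLRP3 and IL1B, had 0 listed. For a gene that is missing from the table, a p of at least 0.05 and absence from the test cannot be told apart.

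**Figure D3:**
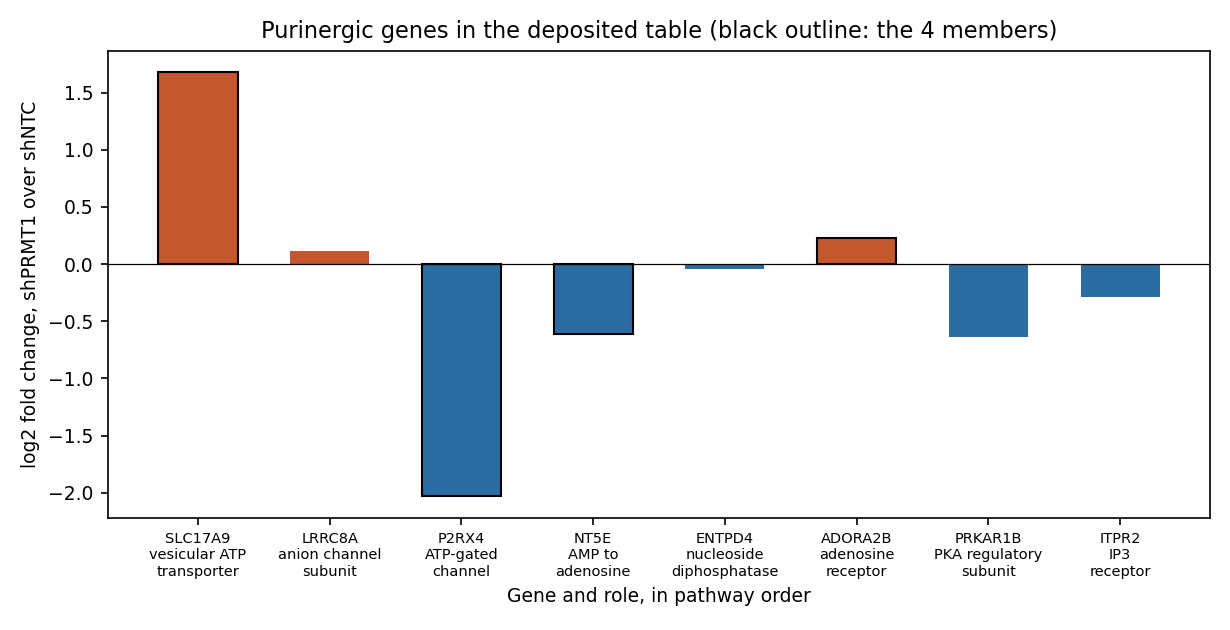
log2 fold change (vertical axis, shPRMT1 over shNTC) of the 8 purinergic genes found in the authors' deposited table, ordered along the horizontal axis from ATP release to downstream effectors, with the members outlined in black. SLC17A9 at 1.68 and P2RX4 at −2.03 are the tallest bars, and the 4 genes without outline lie between −0.64 and 0.11.

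**Figure D4:**
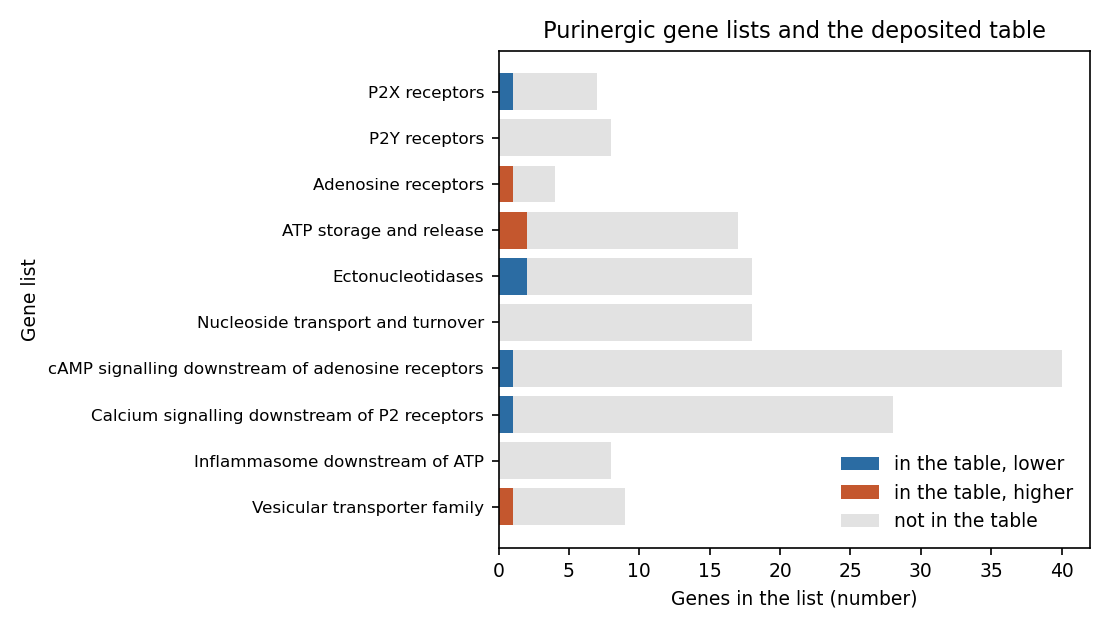
Number of genes (horizontal axis) in each purinergic gene list (vertical axis), split into genes listed lower, listed higher and not in the authors' deposited table. Most of each bar is grey: 3 of the 10 lists have no listed gene, and no list has more than 2.

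Markers of other cells that a culture could hold were read in the same way, since CD73 is also abundant on fibroblasts and endothelium. Of 10 fibroblast markers COL1A2 was listed at −0.51, and of 8 endothelial markers CDH5 at 0.81, in the authors' deposited table. None of 10 leukocyte markers was listed, and of 6 markers of pancreatic cancer cells KRT19 was listed at −0.24 in the authors' deposited table. Their levels in the samples are not in the table, so the labelled cell type was not checked against them, and their part in the members' values was not tested. Fewer cells of a type and less RNA per cell cannot be told apart in bulk RNA.

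Because near-identical copies can share reads, the members' sequences were compared with all other annotated transcripts (GENCODE 29, on GRCh38). For each member the annotated transcript with the longest coding sequence was searched. No window of 50 bases in these transcripts occurred in a transcript of another gene, on either strand. The windows numbered 3531, 1787, 3499 and 1686 for SLC17A9, P2RX4, NT5E and ADORA2B. Other transcripts of the members were not searched, and for P2RX4 the searched one has 1836 nt, against 8159 exonic bases of the gene. None of the 4 members overlapped another annotated gene on the genome. ADORA2B has a processed pseudogene, ADORA2BP1, which was not in the table. Over 833 aligned bases it matched the coding sequence of ADORA2B at 82.7%, with a longest identical run of 34 bases. With windows of 30 bases, 5 windows of ADORA2B occurred in ADORA2BP1, and 0 windows of the other members occurred in any other gene. The most alike 60 bases, which show how close the copies come, are bases 466 to 525 of the ADORA2B coding sequence and bases 311 to 370 of the pseudogene transcript, with the 3 mismatches in capitals.
ADORA2B: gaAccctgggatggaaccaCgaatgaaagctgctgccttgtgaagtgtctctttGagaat
ADORA2BP1: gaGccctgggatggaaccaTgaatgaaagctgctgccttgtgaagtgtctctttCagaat
Against its nearest receptor relative, ADORA2A, the coding identity of ADORA2B was 73.4%. P2RX4 matched P2RX2 at 68.9% and P2RX7 at 68.0%, and SLC17A9 matched SLC17A6 at 65.0%. ADORA2B matched ADORA1 at 65.5% and ADORA3 at 64.8%. The same alignment of unrelated members with each other gave 62.3% to 70.7%. The top of that range came from NT5E with ADORA2B, and the next pair, P2RX4 with NT5E, had 66.9%. Under this alignment the identities of ADORA1, ADORA3 and the P2X and SLC17 relatives lay within or below the range of unrelated coding sequences. P2RX2, P2RX7 and P2RX3 (67.7%) exceeded every unrelated pair but the top one, which was aligned over 56.2% of NT5E. The range rests on few pairs, so it does not show that these relatives are no more alike than unrelated genes.

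In gene structure the members differ in the number of transcripts, while P2RX4 and SLC17A9 have the same number of coding exons. P2RX4 has 14 annotated transcripts and 13 coding exons, SLC17A9 has 7 and 13, NT5E has 5 and 9, and ADORA2B has 2 and 2. Their longest transcripts measure 4658 nt, 3992 nt, 3918 nt and 1875 nt in that order, against a median of 3340.5 nt over 846 genes of the table matched to the annotation. SLC17A9 is rich in G and C, at 62.6% of its longest transcript, where the other members have 43.8% to 46.0% and the median of the table's genes is 47.1%. Direction in the table varied with transcript length. In the length group of ADORA2B, 1844 to 2763 nt, 75.9% of genes were lower, and ADORA2B was listed higher. SLC17A9 and NT5E fall in the same group, in which 64.3% were lower, and stand on opposite sides. In the group of P2RX4 47.9% were lower. These groups rest on the longest transcript of each gene. The transcripts with the longest coding sequence measure 1836 nt for P2RX4 and 1735 nt for ADORA2B. Both lengths lie within another group, 80 to 1840 nt, in which 67.6% were lower.

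Promoter windows from RefSeq (GRCh38.p14), 250 bases before to 50 bases after the start, were matched for 3 members, P2RX4, NT5E and ADORA2B. For each gene symbol 1 window was kept, so any further start of a gene was not searched. Gs-coupled adenosine receptors signal through cyclic AMP to CREB, so the CREB core TGACG was searched on both strands, and each of the 3 windows held it 1 time. Of 27305 promoter windows searched, 25.0% hold it, and of the 627 windows matched to the table's 858 genes 36.0% do. Since windows were matched for too few of the table's genes, shares over these 627 are a partial background. The sites are printed with 30 bases of the plus strand each, with the core in capitals. It was picked for printing by its counts, as the motif of the 4 searched that all 3 windows hold in equal number. The SP1 box is also held by all 3 windows, so the CREB core is not the only shared motif.
P2RX4, chr12:121210057-121210086, first base of the site 60 bases before the start: cctcctccgcgaTGACGgcgccgccagcag
NT5E, chr6:85449944-85449973, first base of the site 127 bases before the start: ggtcggatcgggTGACGtcgcgaacttgcg
ADORA2B, chr17:15944892-15944921, first base of the site 226 bases before the start: cgagctcgagcgTGACGggaagttggggca
The SP1 box GGGCGG occurred 4 times in the window of P2RX4 and 2 times in each of the windows of NT5E and ADORA2B, where 44.6% of all windows and 72.9% of those of the table's genes hold it. The hypoxia response core ACGTG, which can overlap the CREB core in TGACGTG, and the TEAD site GGAATG were found in 0 of the 3 windows. All windows hold them in 21.6% and 14.05% of cases, and those of the table's genes in 28.9% and 9.25%. In the 200 bases before the start alone, P2RX4 and NT5E hold the CREB core 1 time each and ADORA2B 0 times. A match describes letters only, and binding was not measured.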

How the data were processed

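RNA of 4 MiaPaca-2 samples, 2 shPRMT1 and 2 shNTC by their titles, was sequenced. The build hg19 and the tools edgeR 3.36.0, StringTie 2.2.1, HISAT2 2.2.1, deepTools and Trim Galore 0.6.7 are named, without their roles, per the submitters' processing notes. The labels' extraction text describes a chromatin immunoprecipitation beside an RNA library kit. Molecule and library source are those of RNA, so the samples were treated as RNA sequencing. The authors deposited, per gene, the ratio of both groups (a linear fold change), the same on a log2 scale, and p-values before and after adjustment. Which test, normalization and filter they used is not given in the sources used here. Only genes with p under 0.05 are in the table. Columns of single samples: 0 were used, so the planned count model could not be fitted, no test was run, and the members' values are a description.

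The number of genes tested came from p, rank and adjusted p: all 52 values of adjusted p that could be used gave 7640 (tolerance 0.01). Members and lists were chosen with earlier results of these data known. Named were the members, PRMT1, every listed pathway gene and the 2 protein-coding genes nearest to each member by log2 fold change. HRH1 and the listed marker genes were named beyond that rule, after their values were seen. All 156 list symbols used matched a reference symbol, and 1 further list gene is not reported here or counted. A planned comparison of proteins was replaced by coding sequences from GENCODE 29, whose build differs from hg19 (match 1, mismatch −1, gap opening −3, gap extension −0.5; identity over aligned bases). Promoters came from RefSeq. The recovery of the number of tests, the window search, the motif search and the alignment identity were tested on simulated data. The ranks and list counts were not. Python 3.11.15, pandas 2.3.3, Biopython 1.88 and matplotlib 3.10.9 were used.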

Additional observations from a re-analysis of the deposited data

How the results depend on the processing

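No paired analysis was possible because the table holds no values of single samples. For the same reason leaving out a replicate, another normalization and a filter on low values were not run. The 8 listed purinergic genes became 2 at an unadjusted p under 0.01 and 0 at an adjusted p under 0.05. They became 4 when only log2 values of at least 0.5 in size were taken, and 4 without the 4 members, an alternative chosen after the values were seen. The core lists alone gave 6 and current symbols alone gave 8. The share of lower genes among the 8, 62.5%, was 50% with all log2 values raised by 0.1 and 62.5% with them lowered by 0.1. The 3 other centrings of the log2 values were smaller than any member's value, so no sign could change; ADORA2B, the smallest, ranged from 0.13 to 0.35. All 8 ranks among other sets of genes moved by less than 10 percentage points. In the 200 bases before the start, 8 of the 11 promoter matches lay, and that of the CREB core in ADORA2B did not. Shorter windows, chosen after the data were seen, gave ADORA2B 5 shared windows.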
